A study of Mus musculus with 3 samples.

Results

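The type I interferon-stimulated genes described here are a set of 41 mouse genes listed by name, of which 40 were found among the 32285 genes counted. Mx1, the remaining gene on the list, was not analysed here. Transcripts were counted in single cells that carried the T cell surface protein CD3 and had been sorted from mouse tumours of the colon carcinoma line MC38. Tumours were collected on day 15, after 5 days of treatment, and gave 1 library for each of the 3 groups, labelled PBS, mix and homo. By its title the series is about interleukin-2 targeted to LAG3, a receptor that restrains T cells. What mix and homo stood for is not stated in the labels, nor are the strain, age or number of mice or whether animals were pooled. The groups are therefore called by their labels, and each library is a single sample whose differences have no replicate check.

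Type I interferons bind a receptor built of IFNAR1 and IFNAR2, whose kinases JAK1 and TYK2 start the signal. STAT2 and IRF9 are parts of the factor ISGF3, which then binds the interferon-stimulated response element (ISRE) in the promoters of antiviral genes. In tumours, T cells and myeloid cells can both respond to interferon, and many of these genes can also be induced by interferon-gamma or interferon-lambda, so the name of the set does not say which interferon was sensed.

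Cells were placed in gates by the UMIs (counted molecules) of lineage genes. The CD8 gate held Cd8a or Cd8b1 and neither Cd4 nor Foxp3, the CD4 gate held Cd4 and none of the others, and the Foxp3 gate held Foxp3 and no CD8 gene. Foxp3 is the transcription factor of regulatory T cells. In the order PBS, mix and homo, the CD8 gate held 7147, 5613 and 6543 cells, the CD4 gate 327, 323 and 74, and the Foxp3 gate 846, 812 and 124. UMIs of each gene were summed over the cells of a gate and scaled to counts per 1000000 UMIs of that gate (CPM). A UMI stands for 1 captured 3′ end, so CPM values of different genes were compared without a correction for length.

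The libraries held 8461 to 10351 barcodes and 49179708 to 65336646 UMIs, and the homo library was the deepest, with a median of 6582 UMIs per barcode against 4748 in PBS and 4955 in mix. It also had the highest share of barcodes with over 10% mitochondrial UMIs, at 4.07%, against 0.251% in PBS and 0.307% in mix. Between 100 and 131 barcodes were shared by each pair of libraries. T cell genes were found in 97.2% to 100% of the cells of every gate. The CD4 gate was mixed. In PBS, mix and homo, dendritic cell markers summed there to 1666, 676 and 54.7 CPM and plasmacytoid dendritic cell markers to 341, 354 and 19.3 CPM, with Klk1, Siglech and Cox6a2 at 0 in homo. All intervals below are 95% intervals and cover counting error only, not the spread between cells. In cells thinned at random to 2000 UMIs, the variance of member UMIs per cell was 12.3 to 32.2 times their mean. The intervals of summed levels are therefore too narrow for that spread.

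Promoter windows of 300 bases, from 250 before to 50 after the transcription start site, were taken from RefSeq for 31 of the listed genes (build GRCm38.p6). The ISRE core was searched as TTTCNNTTTC and its reverse complement GAAANNGAAA, on both strands with overlapping matches allowed. It was found in 18 of the 31 members (58.1%) and in 3.99% of all 27025 genes with a window. The windows below belong to members on which the results turn. They are Isg15 (chr4:156200769-156201068, minus strand), the near copies Ifit3 (chr19:34583279-34583578, plus strand) and Ifit3b (chr19:34607707-34608006, plus strand), Eif2ak2 (chr17:78882523-78882822, minus strand) and Oasl2 (chr5:114896684-114896983, plus strand). They are written 5′ to 3′ along the gene, and capitals mark matches to the core.
Isg15: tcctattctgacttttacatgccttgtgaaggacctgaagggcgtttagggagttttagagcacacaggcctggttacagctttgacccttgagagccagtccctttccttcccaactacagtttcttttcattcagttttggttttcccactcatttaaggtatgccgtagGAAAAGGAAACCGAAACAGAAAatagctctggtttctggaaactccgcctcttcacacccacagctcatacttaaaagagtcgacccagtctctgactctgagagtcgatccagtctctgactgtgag
Ifit3: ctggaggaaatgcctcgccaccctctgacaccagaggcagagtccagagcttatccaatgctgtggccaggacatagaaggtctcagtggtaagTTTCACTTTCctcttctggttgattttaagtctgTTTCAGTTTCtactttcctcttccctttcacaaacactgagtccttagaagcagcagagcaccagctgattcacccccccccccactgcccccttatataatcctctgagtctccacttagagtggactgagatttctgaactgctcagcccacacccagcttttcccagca
Ifit3b: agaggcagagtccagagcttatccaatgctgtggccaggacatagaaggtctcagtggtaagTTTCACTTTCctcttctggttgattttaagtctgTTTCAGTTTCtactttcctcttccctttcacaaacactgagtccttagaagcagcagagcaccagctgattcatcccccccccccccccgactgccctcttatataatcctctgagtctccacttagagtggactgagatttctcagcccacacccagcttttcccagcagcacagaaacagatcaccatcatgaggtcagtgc
Eif2ak2: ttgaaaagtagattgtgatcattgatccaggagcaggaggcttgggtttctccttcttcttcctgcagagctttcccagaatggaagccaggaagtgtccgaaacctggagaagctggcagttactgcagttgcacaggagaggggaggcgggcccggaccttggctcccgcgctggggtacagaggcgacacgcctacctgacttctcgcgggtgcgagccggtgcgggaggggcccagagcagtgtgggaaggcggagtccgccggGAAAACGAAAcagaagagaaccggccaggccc
Oasl2: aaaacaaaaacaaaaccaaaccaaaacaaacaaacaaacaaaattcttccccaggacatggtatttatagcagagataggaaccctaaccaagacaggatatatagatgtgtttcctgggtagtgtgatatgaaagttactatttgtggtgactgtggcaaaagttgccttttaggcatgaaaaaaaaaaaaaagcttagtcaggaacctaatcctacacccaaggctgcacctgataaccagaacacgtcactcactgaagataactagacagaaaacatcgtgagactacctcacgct
The Isg15 window held 3 overlapping matches, and those of Ifit3 and Ifit3b held 2 matches each. Aligned at a shift of 32 bases without gaps, the Ifit3 and Ifit3b windows were identical at 75% of 268 positions. In such an alignment an inserted or missing base puts all later bases out of register. The match of Eif2ak2 lay after its start site, and the Oasl2 window held none, which says only that these letters are not in this window. A match is a description of sequence and not a measured binding site. The interferon-gamma-type GAS core, TTCNNNGAA, was found in 6 of the 31 members (19.4%) and in 9.55% of all genes.

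In the CD8 gate the summed members were lowest in homo and highest in mix. They made up 10511 CPM in PBS (10480 to 10543), 12230 CPM in mix (12194 to 12267) and 8027 CPM in homo (8002 to 8052), which is 1.05%, 1.22% and 0.803% of all UMIs of the gate. The log2 ratio of the sums was -0.39 for homo over PBS (-0.40 to -0.38) and 0.22 for mix over PBS (0.21 to 0.22). Of the 40 members, 38 reached a mean of 20 CPM over the libraries. Oas2 and Trim30c lay under that level, with 9.96, 13.6 and 4.56 CPM and 9.86, 8.06 and 1.02 CPM in PBS, mix and homo.

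Of those 38 members, 11 were at least 1.5-fold lower in homo than in PBS and 0 were at least 1.5-fold higher, while 4.05% of the 5700 genes of this level were lower and 2.51% higher by that much. Where a mean of at least 50 CPM was required, 7 were lower. The members' median log2 ratio was -0.33 and that of all genes -0.05. The ratio lay below 0 for 37 members. Between mix and PBS no member differed by 1.5-fold either way, against 0.386% of all genes lower and 0.316% higher. The ratio lay above 0 for 36 members, with a median of 0.18, and for 32 of them its interval lay wholly above 0. Against mix, 15 members were at least 1.5-fold lower in homo and 0 higher, with 3.98% of all genes lower and 2.33% higher. The comparisons with PBS share the PBS library, and those with homo share the homo library.

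**Figure D1:**
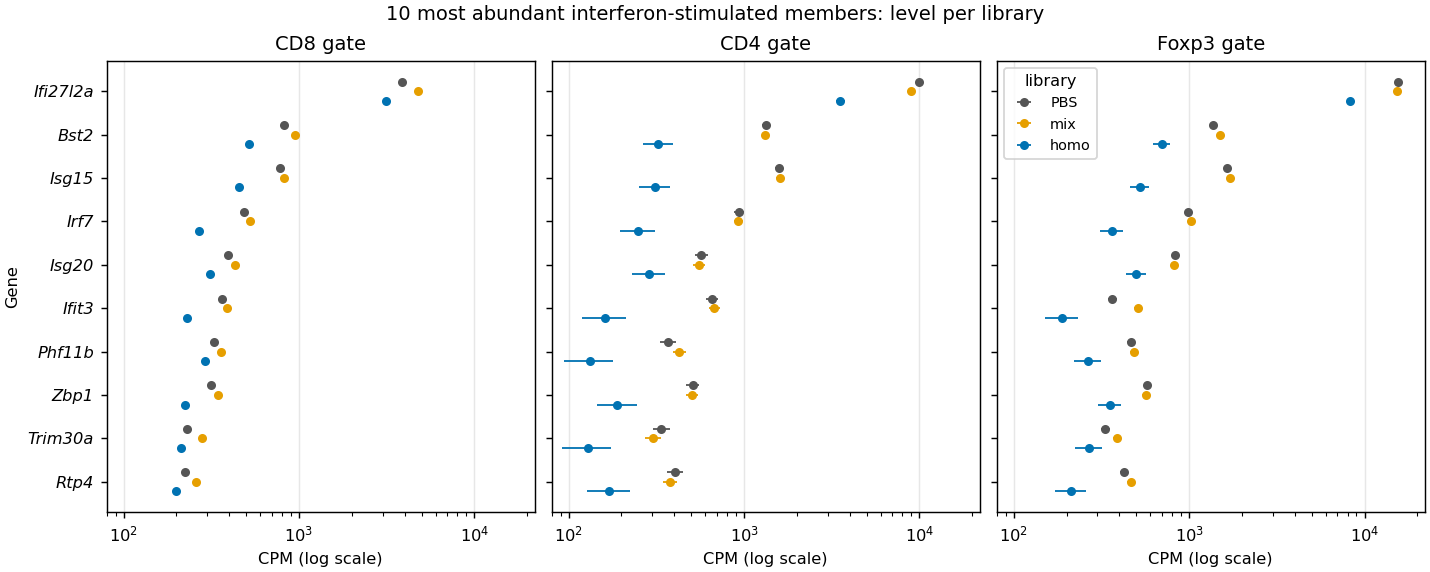
CPM (log scale) of the 10 members with the highest mean level in the CD8 gate, by gate and library, with points for the level and bars for the 95% counting interval. Homo is the lowest point for all 10 genes in each gate. PBS lies closer to mix than to homo for most genes, but not for Ifi27l2a, Rtp4 and Trim30a in the CD8 gate.

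Ifi27l2a, a small interferon-inducible membrane protein, was the most abundant member. It was at 3843 CPM in PBS, 4750.4 CPM in mix and 3127 CPM in homo, and it alone held 36.6%, 38.8% and 39.0% of the members' UMIs. Homo was the lowest and mix the highest, as for the sum. Without it the log2 ratio of the sums was -0.44 for homo over PBS and 0.17 for mix over PBS. Bst2, or tetherin, which holds budding virus particles at the cell surface, was at 821 CPM in PBS, 947 CPM in mix and 516 CPM in homo (homo over PBS -0.67, -0.69 to -0.65). Rtp4, a chaperone-like protein that restrains some viruses, was at 225, 260 and 199 CPM, a smaller gap to homo (-0.18, -0.22 to -0.14).

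Among the transcription factors, Irf7 had a larger gap between homo and PBS than Irf9 and Stat2. Irf7, which amplifies interferon production, was at 483 CPM in PBS, 525 CPM in mix and 269.8 CPM in homo, a log2 ratio of -0.84 for homo over PBS (-0.87 to -0.81). Irf9 and Stat2, which are both parts of ISGF3, had ratios of -0.17 (-0.24 to -0.11) and -0.25 (-0.33 to -0.17). Their levels were 85.7, 88.6 and 75.9 CPM for Irf9 and 60.1, 64.7 and 50.5 CPM for Stat2 in PBS, mix and homo. The 3 libraries therefore lay closer together for these genes than for Irf7.

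Isg15 encodes a ubiquitin-like protein that is attached to other proteins during the interferon response. It was at 777 CPM in PBS, 823 CPM in mix and 454 CPM in homo (homo over PBS -0.78, -0.80 to -0.75). Usp18, the protease that removes ISG15 and restrains signalling at IFNAR2, was at 198 CPM in PBS, 270.2 CPM in mix and 159 CPM in homo. It had the highest mix over PBS ratio of the 38 members, 0.45 (0.41 to 0.49), and a homo over PBS ratio of -0.32. Herc6, a ligase for ISG15 in mice, had a homo over PBS ratio of -0.20 and was at 114, 136 and 99.6 CPM.

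The IFIT proteins bind viral RNA and limit its translation. Ifit3 was at 362 CPM in PBS, 389.9 CPM in mix and 229 CPM in homo (homo over PBS -0.66, -0.70 to -0.63), and Ifit3b at 75.3, 75.9 and 41.9 CPM (-0.84, -0.92 to -0.76). Because these genes are near copies with similar promoter windows, UMIs may be split between them and their separate values are uncertain. Ifit1, Ifit2 and Ifit1bl1 were closer to PBS in homo, with log2 ratios of -0.28, -0.12 and -0.07, and the interval of Ifit1bl1 included 0 (-0.15 to 0.01). Ifit2 stood at 61.04 CPM in PBS and 77.3 CPM in mix, a ratio of 0.34 (0.26 to 0.42), which was among the 5 highest for mix.

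The lowest homo over PBS ratio of the 38 belonged to Oasl2, which is related to the oligoadenylate synthetases that activate RNase L. Oasl2 was at 46.3 CPM in PBS, 48.7 CPM in mix and 15.7 CPM in homo, 2.96-fold lower in homo than in PBS (log2 -1.56, -1.69 to -1.44). Its relative Oasl1, which represses translation of Irf7, was at 28.4, 34.9 and 16.3 CPM (-0.80, -0.93 to -0.67). Oas3, a sensor of long double-stranded RNA, was close to PBS, at 72.7, 89.4 and 65.4 CPM (-0.15). Eif2ak2, the kinase PKR that halts translation on double-stranded RNA, was the exception of the set. It was at 68.96 CPM in PBS, 83.7 CPM in mix and 79.2 CPM in homo, so it was higher than PBS in both treated libraries (homo over PBS 0.20, 0.13 to 0.27).

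Sensors of nucleic acid and their relatives were lower in homo as well. Ifi211 and Ifi204, of the PYHIN family of DNA-binding proteins, were at 47.2, 53.8 and 21.1 CPM and at 29.4, 33.4 and 15.0 CPM in PBS, mix and homo. Their homo over PBS ratios were -1.16 (-1.27 to -1.05) and -0.97 (-1.10 to -0.84), while Ifi208 of the same family was at -0.39. These genes are neighbouring paralogs, and UMIs may be split between them. Zbp1, a sensor of Z-form nucleic acid that can start necroptosis, was at 316, 345 and 223 CPM (-0.50). Ifih1 (MDA5) and Dhx58 (LGP2), sensors of double-stranded RNA, were at -0.35 and -0.36.

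The enzymes of nucleotide and RNA handling spread from no detectable gap to a moderate one. Isg20, an RNA exonuclease, was at 395, 433 and 309 CPM in PBS, mix and homo (homo over PBS -0.35). Rsad2, or viperin, which makes a chain-terminating nucleotide, was at -0.52 and its genomic neighbour Cmpk2, a nucleotide kinase, at -0.38. Slfn5, of the Schlafen family, was at 81.6, 77.4 and 53.5 CPM (-0.61). It was also the member with the lowest mix over PBS ratio (-0.08, -0.15 to -0.0035). Slfn8 and Samd9l were at -0.13 and -0.06, and the interval of Samd9l included 0 (-0.12 to 0.01). Samd9l, a translation-limiting antiviral protein, was at 91.9 CPM in PBS and 114 CPM in mix (0.31).

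The ADP-ribosylation group lay closest to PBS. Parp9, Parp14 and Dtx3l, of which PARP9 and DTX3L work as a pair, had homo over PBS ratios of -0.07, -0.13 and -0.14, and 0 of the 3 were 1.5-fold lower. Phf11a was at 64.3, 70.3 and 39.8 CPM (-0.69), whereas its paralog Phf11b was at 325, 359 and 291 CPM (-0.16), with the same doubt about split UMIs. Trim30a, a regulator of inflammatory signalling, was at 229.6, 279 and 213 CPM (-0.10), with a mix over PBS ratio of 0.28. Xaf1 and Ifi35 were at -0.40 and -0.24.

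**Figure D2:**
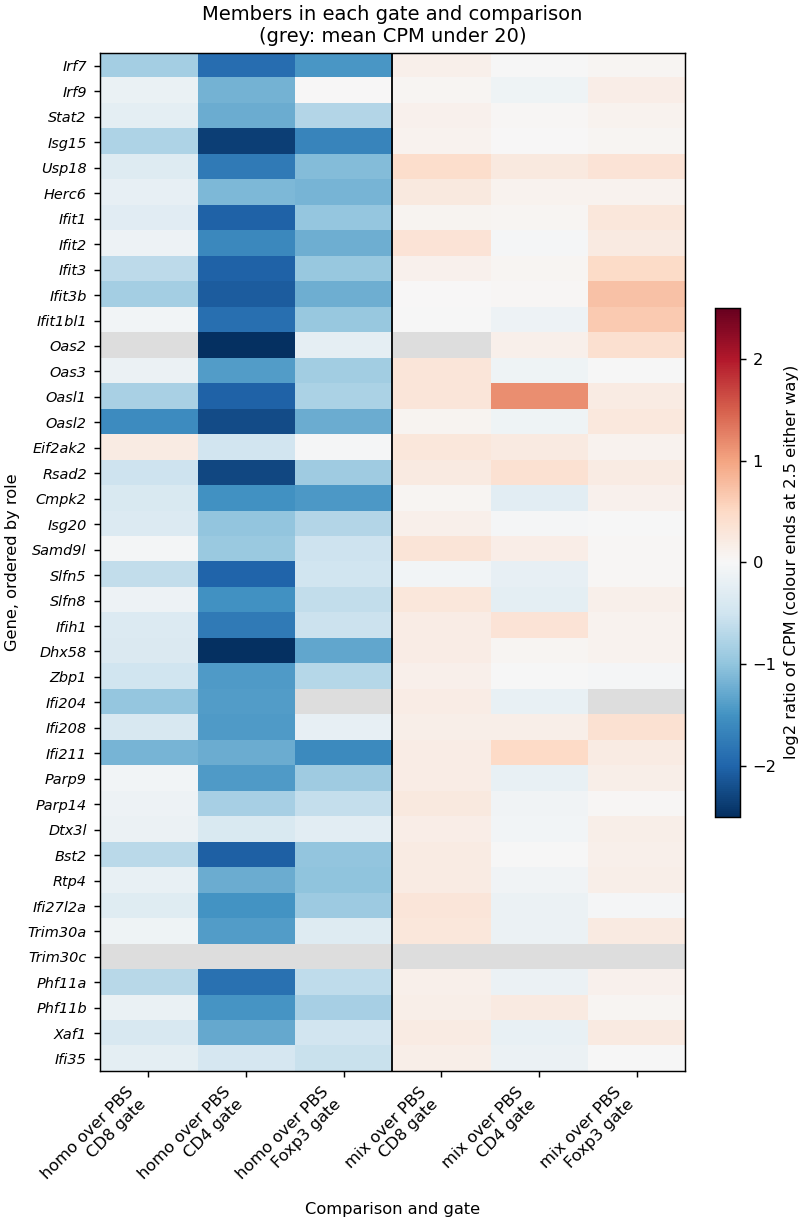
Log2 ratio of CPM for each of the 40 members (rows, ordered by role) in the 3 gates, for homo over PBS on the left and mix over PBS on the right; blue is lower and red higher than PBS, and grey marks a mean under 20 CPM. The left columns are blue almost throughout, palest in the CD8 gate and darkest in the CD4 gate, and Eif2ak2 in the CD8 gate is the clearest exception.

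In the CD4 gate the members were much lower in homo, and PBS and mix lay closer to each other. Their sum was 21341 CPM in PBS, 20477 CPM in mix and 7227 CPM in homo, a log2 ratio of -1.56 for homo over PBS (-1.63 to -1.50) and -0.06 for mix over PBS (-0.09 to -0.03). With at least 2 lineage UMIs required in the gate, mix over PBS was -0.25, and without Ifi27l2a or with thinned cells it was just above 0 (0.0090 and 0.017). Thinned cells held a mean of 42.5 member UMIs in PBS and 43.0 in mix. Their standard deviations were 32.5 and 37.2 over 254 and 274 cells, so the sign of mix over PBS is not settled. Of 39 members at this level, 36 were at least 1.5-fold lower in homo than in PBS and 0 higher, against 16.4% and 10.5% of 6149 genes. The member median was -1.49 and that of all genes -0.03. The homo library held only 74 cells and 2247 member UMIs here, so single genes are imprecise. Trim30c, under the level, had 0 UMIs in homo, and 3 UMIs, the limit that a count of 0 allows, would be 9.65 CPM.

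Isg15 was at 1577 CPM in PBS, 1597 CPM in mix and 309 CPM in homo (homo over PBS -2.35, -2.67 to -2.05). Bst2 was at 1339, 1324 and 325 CPM (-2.04), Irf7 at 932, 928 and 248 CPM (-1.91), Ifit3 at 654, 676 and 161 CPM (-2.02), and Ifit1 at 482, 498 and 119 CPM (-2.02). For these 5 genes PBS and mix differed by less than the counting interval. The smallest gaps were those of Dtx3l (-0.39), Ifi35 (-0.42) and Eif2ak2 (-0.47), and their intervals included 0. Ifi27l2a was at 9917, 8982 and 3528 CPM, and it had the lowest mix over PBS ratio by the interval end nearest 0 (-0.14, -0.18 to -0.10).

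Against mix, 37 members of the CD4 gate were at least 1.5-fold lower in homo and 0 higher, with 14.9% and 10.2% of all genes, and Rsad2, at 187, 245 and 38.6 CPM in PBS, mix and homo, joined the lowest. Between mix and PBS, 0 members were lower and 1 was higher by 1.5-fold, against 4.34% and 4.08% of all genes. That member was Oasl1, at 38.9 CPM in PBS and 86.7 CPM in mix (1.16, 0.60 to 1.74). Since dendritic and plasmacytoid markers also differed between the libraries of this gate, the counts were repeated without barcodes holding any macrophage, dendritic or plasmacytoid marker. With 231, 236 and 55 cells left, 35 members were at least 1.5-fold lower in homo than in PBS and the log2 ratio of the sums was -1.46.

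The Foxp3 gate had the highest summed level in each library, but in PBS this rested on Ifi27l2a, without which the CD4 gate was higher, at 11425 CPM against 10786 CPM. The members made up 26401 CPM in PBS, 27158 CPM in mix and 13968 CPM in homo, a log2 ratio of -0.92 for homo over PBS (-0.95 to -0.88) and 0.04 for mix over PBS (0.03 to 0.05). Without Ifi27l2a the mix over PBS ratio was 0.13 (0.11 to 0.15), and over all alternatives it lay between 0.017 and 0.13. Of 38 members, 27 were at least 1.5-fold lower in homo than in PBS and 0 higher, against 9.07% and 9.63% of 6055 genes. The member median was -0.85 and that of all genes 0.02. Without barcodes holding a macrophage, dendritic or plasmacytoid marker, 27 members were lower and the ratio of the sums was -0.89. The dendritic list, which holds MHC class II genes and Cd74, summed to 617, 799.7 and 266 CPM in this gate.

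Isg15 was at 1646 CPM in PBS, 1708 CPM in mix and 525 CPM in homo (homo over PBS -1.65, -1.84 to -1.47), and Irf7 at 986, 1023 and 362 CPM (-1.45, -1.68 to -1.23). Ifi27l2a, which held 56.6% to 59.2% of the members' UMIs in this gate, was at 15615, 15382 and 8267 CPM (-0.92, -0.96 to -0.87). Bst2 and Rtp4 were at -0.98 and -1.003. Irf9, at 120, 134 and 121 CPM, and Eif2ak2, at 76.7, 81.1 and 75.3 CPM, had ratios to PBS whose intervals included 0 in both treated libraries. Between mix and PBS, 0 members were lower and 2 were higher by 1.5-fold, against 0.677% and 0.694% of all genes. They were Ifit3b, at 77.9 and 129 CPM (0.73, 0.50 to 0.95), and Ifit1bl1, at 48.2 and 76.4 CPM (0.66, 0.37 to 0.96). Ifit3, at 365 and 512 CPM, followed with 0.49 (0.38 to 0.59). Against mix, 31 members were lower in homo and 0 higher, with 8.41% and 8.52% of all genes.

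From the lowest to the highest summed level, the gates stood in the order CD8, CD4, Foxp3 in PBS and mix, and CD4, CD8, Foxp3 in homo. The summed level of the CD4 gate over that of the CD8 gate had a log2 ratio of 1.02 for PBS (1.002 to 1.042), 0.74 for mix (0.72 to 0.76) and -0.15 for homo (-0.21 to -0.09). For the Foxp3 gate over the CD8 gate it was 1.33, 1.15 and 0.80. Without Ifi27l2a the ratios of the CD4 gate were 0.78, 0.62 and -0.41 and those of the Foxp3 gate 0.69, 0.65 and 0.22. In the CD4 gate, dendritic markers summed to 1666, 676 and 54.7 CPM and plasmacytoid markers to 341, 354 and 19.3 CPM. The ratios between gates were not repeated without barcodes holding such markers. Of 38 members compared, 25 were at least 1.5-fold higher in the CD4 than in the CD8 gate in PBS (15.8% of 5393 genes), 15 in mix (13.9%) and 1 in homo (17.7%). Those at least 1.5-fold lower in the CD4 gate were 0 in PBS and 0 in mix, against 6.1% and 6.25% of genes, and 13 in homo, against 8.72%. Of 37 members compared, 15 were at least 1.5-fold higher in the Foxp3 than in the CD8 gate in PBS (15.8% of 5308 genes), 17 in mix (15.9%) and 9 in homo (23.1%). Those lower were 1 in PBS, against 6.44% of genes, 0 in mix, against 6.61%, and 7 in homo, against 9.16%. Ifi27l2a, Oasl2 and Oasl1 were the 3 highest members in the Foxp3 over CD8 ratio in each library.

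Counts per cell showed whether a few cells or many carried the difference. Each cell was thinned to 2000 UMIs, which left out 350, 313 and 423 shallower CD8-gate cells of PBS, mix and homo. The median cell then held 19, 23 and 14 member UMIs. The ratio of homo to PBS was 0.75 at the 10th percentile of cells, where it compares 3 with 4 UMIs and is coarse. It was 0.778 at the 25th, 0.737 at the median, 0.76 at the 90th and 0.767 at the 99th. From the 25th percentile up the gap was thus of similar relative size. The ratio of mix to PBS was 1.5 at the 10th percentile (6 against 4 UMIs) and 1.33 at the 25th (12 against 9 UMIs). It was 1.21 at the median, 1.02 at the 90th and 0.933 at the 99th. Mix and PBS therefore differed among cells with few member UMIs and hardly among the richest cells. Cells with at least 20 member UMIs made up 34.6% of the gate for homo (33.4 to 35.8), less than the 49.3% for PBS (48.1 to 50.5) and the 58.7% for mix (57.4 to 60.1).

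In the Foxp3 gate the gap between homo and PBS was not of one relative size across cells. The median cell held 53 member UMIs in PBS, 54 in mix and 19.5 in homo, among 720, 711 and 108 cells. The ratio of homo to PBS was 0.3 at the 10th percentile, 0.368 at the median, 0.779 at the 90th and 0.957 at the 99th. The ratio thus rose toward the richer cells. With 108 homo cells the 99th percentile rests on the richest few, and no interval was computed. In the CD4 gate the medians were 35.5, 36.5 and 12. The percentiles of these gates were not repeated without Ifi27l2a, the most abundant member.

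**Figure D3:**
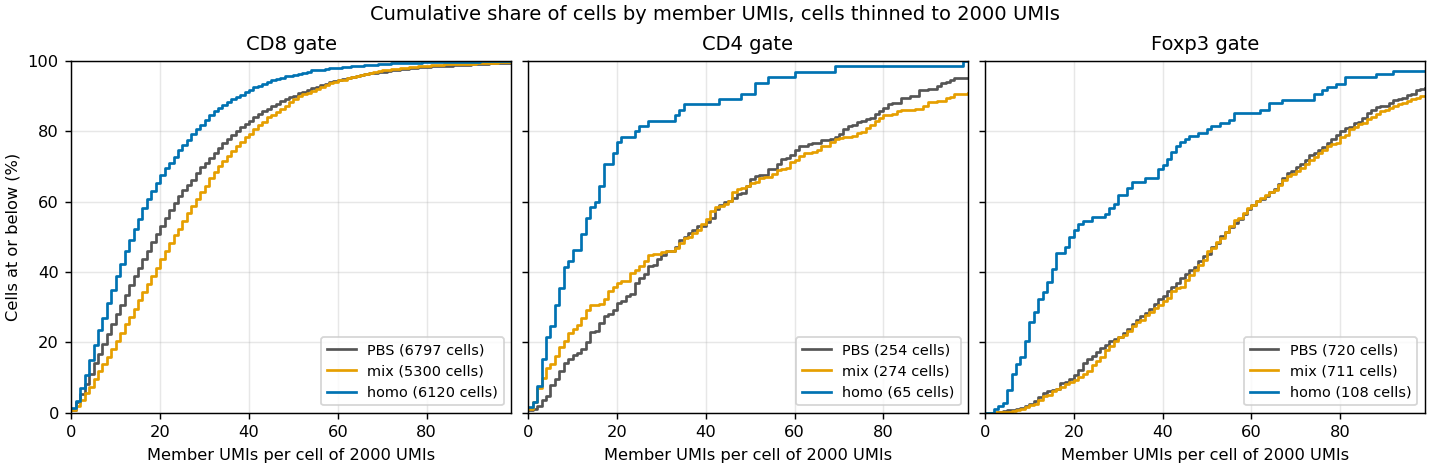
Cumulative share of cells (%) against member UMIs per cell after thinning to 2000 UMIs, by gate, with 1 line per library. In the CD8 gate the mix line lies below PBS at low counts and meets it at high counts, with homo above both; in the CD4 and Foxp3 gates the PBS and mix lines lie closer to each other than to homo, which lies far above.

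CD8-gate cells were divided by UMIs of Tcf7, a transcription factor of stem-like T cells, and Havcr2, the exhaustion-associated receptor TIM-3, after thinning. A missing UMI does not show that a gene is off. Cells with Tcf7 and without Havcr2 numbered 412, 388 and 434 in PBS, mix and homo. Their summed member level was 13546 CPM in PBS (13296 to 13800), 11137 CPM in mix (10903 to 11374) and 7865 CPM in homo (7680 to 8054). In these cells mix was below PBS, with a log2 ratio of -0.28 (-0.32 to -0.24), and homo over PBS was -0.78 (-0.83 to -0.74). Cells with Havcr2 and without Tcf7 were at 10095, 11820 and 8009 CPM, with mix above PBS (0.23, 0.21 to 0.25) and homo over PBS at -0.33. The order of PBS and mix was thus opposite in these kinds of cell.

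Most single members followed the same order in the cells with Tcf7. The 38 members at the level in these cells included Oas2 and Trim30c but not Ifi204 and Ifi211. Of them, 33 had a mix over PBS ratio below 0. By at least 1.5-fold, 7 were lower and 0 higher, against 6.08% and 5.59% of 5703 genes. Isg15 was at 1249 CPM in PBS, 965 CPM in mix and 471 CPM in homo, and Irf7 at 845, 631 and 361 CPM. The sum without Ifi27l2a gave a mix over PBS ratio of -0.28 as well (-0.32 to -0.23). Homo over PBS had 25 members at least 1.5-fold lower and 0 higher, against 9.57% and 10.6% of all genes. Homo over mix had 18 lower and 0 higher, against 8.87% and 10.7%. The difference between the kinds of cell has no replicate check.

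**Figure D4:**
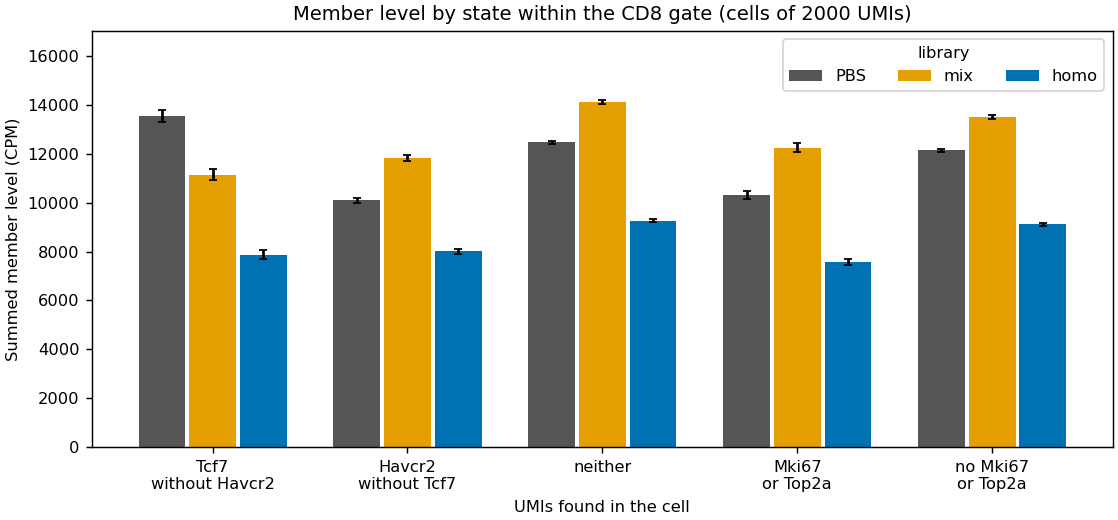
Summed member level (CPM) in CD8-gate cells thinned to 2000 UMIs, divided by UMIs of Tcf7 and Havcr2 and, separately, of the cell cycle genes Mki67 and Top2a, with bars for libraries and lines for the 95% counting interval. Homo is lowest in every kind of cell, and mix is above PBS in all of them except the cells with Tcf7 and without Havcr2.

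Cell cycle did not divide the libraries in this way. Cells with a UMI of Mki67 or Top2a, genes of dividing cells, were at 10310, 12241 and 7563 CPM in PBS, mix and homo, and the others at 12138, 13488 and 9114 CPM. Homo over PBS was -0.45 in the first and -0.41 in the second. When the states defined by Tcf7 and Havcr2 were weighted as in PBS, homo over PBS was -0.43 and mix over PBS 0.16.

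Cells of 1 library differed widely in the members. For each gene, the 10% of CD8-gate cells with the most UMIs of the other members were set against the remaining cells, so that a gene did not choose its own cells. In PBS, Rsad2 was 8.29-fold higher in the rich cells, Slfn5 7.5-fold, Ifit3b 7.17-fold and Isg15 4.96-fold (3267 against 658 CPM). Ifi27l2a was 1.57-fold higher (6155 against 3908 CPM) and Irf9 1.46-fold. So the most abundant member was also one of those that rose least in the rich cells. The median log2 ratio of the 38 members was 1.89 and that of other genes -0.08, and 26 members lay above the 99th percentile of other genes, 1.48.

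Outside the set, the 10 genes with the largest such ratios in PBS were Cxcl10 (3.64), a chemokine that attracts T cells, Iigp1 (3.04) and Gbp2 (2.67), both interferon-induced GTPases, A330040F15Rik (2.46), Ube2l6 (2.33), the conjugating enzyme for ISG15, Parp12 (2.33), Tnp2 (2.31), Daxx (2.30), Tor3a (2.29) and Parp11 (2.18). Among 38 members, the ratio between rich and other cells within mix and the homo over PBS ratio correlated with Pearson's r of -0.54 and Spearman's rho of -0.54. The measures come from different libraries, the points are genes that share cells and are not independent, and no test was made. Members that rose most in the mix cells rich in the other members tended to be those lower in homo, with Ifit1bl1 and Ifit2 as exceptions.

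**Figure D5:**
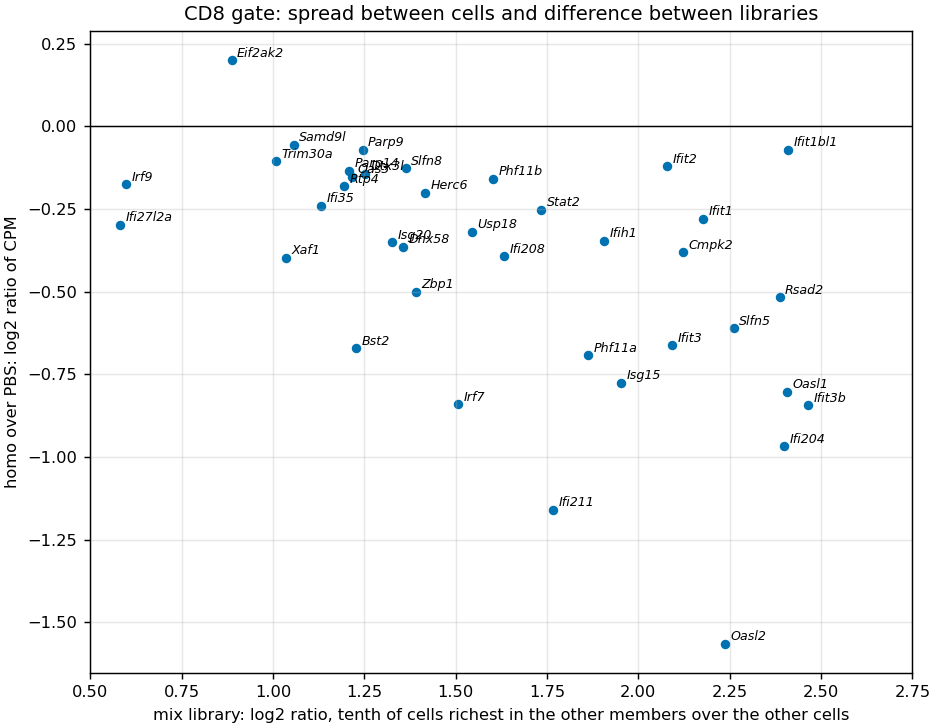
Each point is 1 of 38 members in the CD8 gate, with the log2 ratio between the 10% of mix cells richest in the other members and the remaining mix cells on the x axis, and the log2 ratio of homo over PBS on the y axis. Oasl2, Ifi204 and Ifit3b lie at the lower right, Irf9 and Ifi27l2a at the left, and Eif2ak2 alone above 0.

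Genes of the interferon receptors and their kinases did not lie to one side of PBS in the CD8 gate. Of 6 receptor and kinase genes at this level, 0 differed by 1.5-fold between homo and PBS. Among all genes at this level, 4.05% were at least 1.5-fold lower in homo and 2.51% higher. Ifnar2 was higher in homo (0.47, 0.39 to 0.55) and Ifnar1 too (0.17, 0.09 to 0.25), while Jak1 (0.02) and Tyk2 (-0.05) had intervals that included 0. Ifngr1, a subunit of the interferon-gamma receptor, was lower, at 676 CPM in PBS, 631 CPM in mix and 552 CPM in homo (-0.29, -0.32 to -0.27). Among 7 other interferon transcription factors, 1 was lower, Irf8 at -0.91. Of 4 feedback genes 2 were lower, the cytokine signalling inhibitors Socs3 at -1.79 and Socs1 at -0.95. Ifng was the only interferon gene of 10 listed that reached the level, at 376 CPM in PBS, 374.5 CPM in mix and 219 CPM in homo (-0.78). The CD4 gate, with 74 homo cells, differed from this. There Ifng was at 50.2, 45.1 and 157.6 CPM in PBS, mix and homo (homo over PBS 1.65, 1.05 to 2.25). Ifnar1 (-0.95) and Ifnar2 (-0.87) were lower in homo there, with intervals below 0. In the Foxp3 gate Ifng lay under the level and Ifnar1 was higher in homo (0.49, 0.05 to 0.90).

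In the CD8 gate of homo, a wider list of genes known to be induced by type I interferon lay near PBS. Of 37 at this level, 1 was at least 1.5-fold lower in homo than in PBS and 1 higher. Among all genes these shares were 4.05% and 2.51%. The lower one was Ube2l6 at -1.02. The higher one was the entry-blocking membrane protein Ifitm3, at 558 CPM in PBS, 649.7 CPM in mix and 934 CPM in homo (0.74). The median of the 37 was -0.08 for homo over PBS, near the -0.05 of all genes. For mix over PBS it was 0.19, close to the 0.18 of the members. For homo over mix it was -0.27, with 4 of 37 at least 1.5-fold lower and 0 higher. Among all genes 3.98% were lower and 2.33% higher by that much. Of 15 genes associated with interferon-gamma, 2 were lower in homo than in PBS, against 4.05% of all genes. They were Cxcl10 at -1.15 and Gbp2 at -0.61, and the median of the 15 was -0.22. In the CD4 gate 29 of 37 wider type I genes were at least 1.5-fold lower (median -1.03) and 12 of 17 interferon-gamma genes (median -0.94), against 16.4% of all genes. In the Foxp3 gate these were 12 of 37 (median -0.41) and 0 of 16 (median -0.18), against 9.07% of all genes.

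Lists of stress genes and dendritic markers were also lower in homo. Proliferation and endothelial lists were instead highest in homo in each gate. Proliferation genes summed to 1167, 1116 and 1473 CPM in the CD8 gate of PBS, mix and homo. Stress and immediate early genes summed to 4774 CPM in PBS, 4639 CPM in mix and 2737 CPM in homo in the CD8 gate, to 7466, 6817 and 5005 CPM in the CD4 gate, and to 6099.7, 6309 and 4595 CPM in the Foxp3 gate. The dendritic list summed to 125, 107 and 12.0 CPM in the CD8 gate, where all of its 9 genes were detected in each library. Their part in the members' difference was not tested. Without barcodes holding a macrophage, dendritic or plasmacytoid marker, 11 members of the CD8 gate were still at least 1.5-fold lower in homo than in PBS, and the ratio of the sums was -0.37. Free RNA from other cells can enter any droplet, and no cell type that lacks these genes was at hand to measure it.

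Members with and without a promoter match overlapped in their homo over PBS ratios. The 18 members with an ISRE core had a median homo over PBS ratio of -0.37 in the CD8 gate, with 7 at least 1.5-fold lower, and the 12 without one had -0.30, with 3 lower. Of all genes at this level, 4.05% were lower by that much. Isg15, with overlapping matches, and Oasl2, with none in its window, were both among the lowest.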

How the data were processed

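Single-cell RNA sequencing of CD3-sorted MC38 tumour cells gave 3 libraries (PBS, mix, homo). The deposited values were raw UMI counts per gene and barcode, and the authors' files came from Cell Ranger 7.1.0, as deposited and per their headers. Per the submitters' processing notes the tools were Cell Ranger 2.1.1 and Seurat 4.1.0, with build mm39, so the versions disagree. Member coordinates were not used, and promoter windows are RefSeq's on GRCm38.p6. Every barcode held at least 500 UMIs.

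The filter kept barcodes with 500 or more genes, 1000 or more UMIs and a mitochondrial share under 10%. Scrublet (scanpy 1.11.5) called 3, 1 and 0 doublets with its own threshold, so the highest scores were removed instead, at 0.8% per 1000 barcodes (803, 527 and 485 barcodes). This left 9214, 7588 and 7303 cells. Gated UMIs were summed per library and scaled to CPM. CPM carry exact Poisson intervals, ratios exact conditional binomial intervals and shares exact Clopper-Pearson intervals. Genes with a mean of at least 20 CPM over the libraries entered, and ratios of at least 1.5-fold were counted over members and over all genes. With 1 library per group no test was made. The ratio calculation was checked on simulated Poisson counts, which lack the spread between cells and so do not check the intervals for it. Calculations ran in Python 3.11.15 with scipy 1.17.1, numpy 2.4.6 and pandas 2.3.3.

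The members, gene lists and settings were chosen with earlier results of these data known. Levels in every library are given for the 10 most abundant members of the CD8 gate, and for the 8 lowest and 5 highest members per CD8 comparison and 5 lowest and 5 highest in the other gates, ranked by the interval end nearest 0. A few members outside that rule are named to complete a role. Alternatives covered scaling, the CPM level, the weight of cells, depth, doublets, the mitochondrial limit, the gate, other cell types and dividing cells.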

Additional observations from a re-analysis of the deposited data

Results flagged for a closer look

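The log2 ratio of the summed members between mix and PBS differed in sign between gates. It was 0.2185 in the CD8 gate, -0.0596 in the CD4 gate and 0.0408 in the Foxp3 gate. Without Ifi27l2a these were 0.17, 0.0090 (-0.028 to 0.046) and 0.13, and the signs no longer differed. The difference between gates was not tested, since each rests on 1 library per group. The counting intervals leave out the spread between cells.

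Within the CD8 gate the same ratio was -0.2826 in cells with Tcf7 and without Havcr2, and 0.2276 in cells with Havcr2 and without Tcf7. It was 0.1795 in cells with neither, 0.2477 in cells with Mki67 or Top2a and 0.1521 in cells without them. Only the cells with Tcf7 and without Havcr2 lay below 0 among these kinds of cell, and this difference was not tested either.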

How the results depend on the processing

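No paired analysis was possible because each group had 1 library and the labels carry no replicate numbers. For homo over PBS, the members at least 1.5-fold lower ranged over the alternatives from 7 to 13 in the CD8 gate, 33 to 37 in the CD4 gate and 24 to 30 in the Foxp3 gate, and the log2 ratio of the sums from -0.44 to -0.34, -1.74 to -1.28 and -0.98 to -0.82. The low end of the CD8 count, 7, came with a mean of at least 50 CPM, where fewer genes enter. For mix over PBS the CD8 sum ranged from 0.16 to 0.22. In the CD4 gate the mix over PBS sum of -0.06 changed sign without Ifi27l2a (0.0090) and with thinned cells (0.017), and it was -0.25, with 5 members in place of 0 lower, with a gate of at least 2 lineage UMIs. The 1 member higher in mix became 0 at 50 CPM, 2 at 10 CPM, 2 with the mean of per-cell CPM, 2 without barcodes holding myeloid markers and 3 with thinned cells. In the Foxp3 gate the 2 members higher in mix became 1 at 50 CPM and 1 with thinned cells. Beyond the fewer genes entering at 50 CPM, the cause was not tested. Leaving out Ifi27l2a, requiring a CD3 or T cell receptor gene and requiring Cd4 in the Foxp3 gate were chosen after seeing the data. Counting error does not cover differences between cells, animals, digests or library preparations. The 74 CD4-gate and 124 Foxp3-gate cells of homo limit single genes there.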

Other observations

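Barcodes outside the gates gave the same order of libraries. Barcodes with no lineage gene numbered 557, 535 and 204 in PBS, mix and homo, and their summed member level was 18931 CPM (18700 to 19164), 19463 CPM (19233 to 19695) and 8297 CPM (8073 to 8525). Barcodes with CD8 genes and Foxp3, which can be doublets or cells holding both, numbered 234, 221 and 258 and were at 18631, 20404 and 7781 CPM. Barcodes with CD8 genes and Cd4 were at 11361, 15428 and 6325 CPM.

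Barcodes with at least 5 dendritic markers and no T cell gene numbered 11, 15 and 1 in PBS, mix and homo, with member levels of 15938, 26456 and 5160 CPM. Barcodes with at least 5 macrophage markers numbered 2, 2 and 1, too few to describe.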
